A study of Oryza sativa with 12 samples.

Results

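The 10 genes described here were listed as jasmonate synthesis genes of rice. The part of each in that synthesis was not examined, and for OsOPR1 and LOC_Os06g11240 it is uncertain. They were listed by locus identifier and enzyme family, with no threshold on their values, but with earlier results of these data known. All 10 were found among the 55985 gene models of the deposited table. The list holds the lipoxygenase genes LOC_Os08g39840, LOC_Os08g39850 and LOC_Os12g37260, the allene oxide synthase genes LOC_Os03g55800 and LOC_Os03g12500, OsAOC (LOC_Os03g32314), OsOPR7 (LOC_Os08g35740), OsOPR1 (LOC_Os06g11290), a further 12-oxophytodienoate reductase (OPR) gene (LOC_Os06g11240) and OsJAR1 (LOC_Os05g50890). The study took post-meiotic anthers from Erythroceros Hokkaido (ERY), a cold-tolerant cultivar, and from Sant'Andrea (S.AND), a cold-susceptible cultivar. Panicles spent 1 night at 8 °C (COLD) or at 24 °C (CONTROL), and anthers were dissected when the lights came on. Each of the 4 groups (ERY COLD, ERY CONTROL, S.AND COLD and S.AND CONTROL) held 3 samples, each pooled from several plants. No transgene or mutant was used, and the cultivars differ throughout their genomes, so a difference between them cannot be assigned to 1 locus.

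Jasmonates are hormones made from plastid fatty acids. A 13-lipoxygenase adds oxygen to linolenic acid, allene oxide synthase turns the hydroperoxide into an unstable allene oxide, and allene oxide cyclase (AOC) closes the ring to give 12-oxophytodienoic acid (OPDA). In the peroxisome an OPR enzyme reduces OPDA and beta-oxidation shortens its side chain, and in the cytosol JAR1 joins jasmonic acid to isoleucine, the form bound by the COI1 receptor and the JAZ repressors. Jasmonate is known for its part in stamen growth, anther opening and male fertility.

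The values are the authors' mean of each group in RPKM (reads per kilobase of gene model per 1000000 reads) after their normalization by totals. RPKM below names these normalized values, a unit per length that lets genes be set side by side. Each column of the table sums to about 1000000, so a level is a share of all the mRNA measured and not an amount per cell. Fewer cells of a type and less RNA per cell cannot be told apart in such bulk anther samples. Values of single samples were not analysed here (0 such columns), and the group means therefore carry no SD and no test. Whether any difference below exceeds the spread between the 3 samples of a group could not be assessed, and all ratios are descriptions of group means. A gene was counted as apart when its means differed at least 2-fold with at least 1 RPKM in the higher group. In the anther check, the 5 stamen identity genes summed to 2881 RPKM in ERY COLD and 2840 in ERY CONTROL, and to 2260 RPKM in S.AND COLD and 2521 in S.AND CONTROL. The cold regulator OsDREB1B (LOC_Os09g35010) had 51.2 RPKM in ERY COLD against 4.87 in ERY CONTROL, and 79.9 RPKM in S.AND COLD against 8.36 in S.AND CONTROL.

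The listed genes were unevenly expressed along the steps of the pathway. Of the 10 genes, 7 reached 1 RPKM in a group, 6 reached 10 RPKM in a group and 4 had at least 10 RPKM in every group. The 4 abundant genes were 1 allene oxide synthase gene, OsAOC, OsOPR7 and OsJAR1. The listed lipoxygenase genes, the plastid entry to the pathway, did not exceed 1.94 RPKM in any group. In both cultivars and at both temperatures OsJAR1, at the end of the pathway, was the most abundant of the 10.

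**Figure D1:**
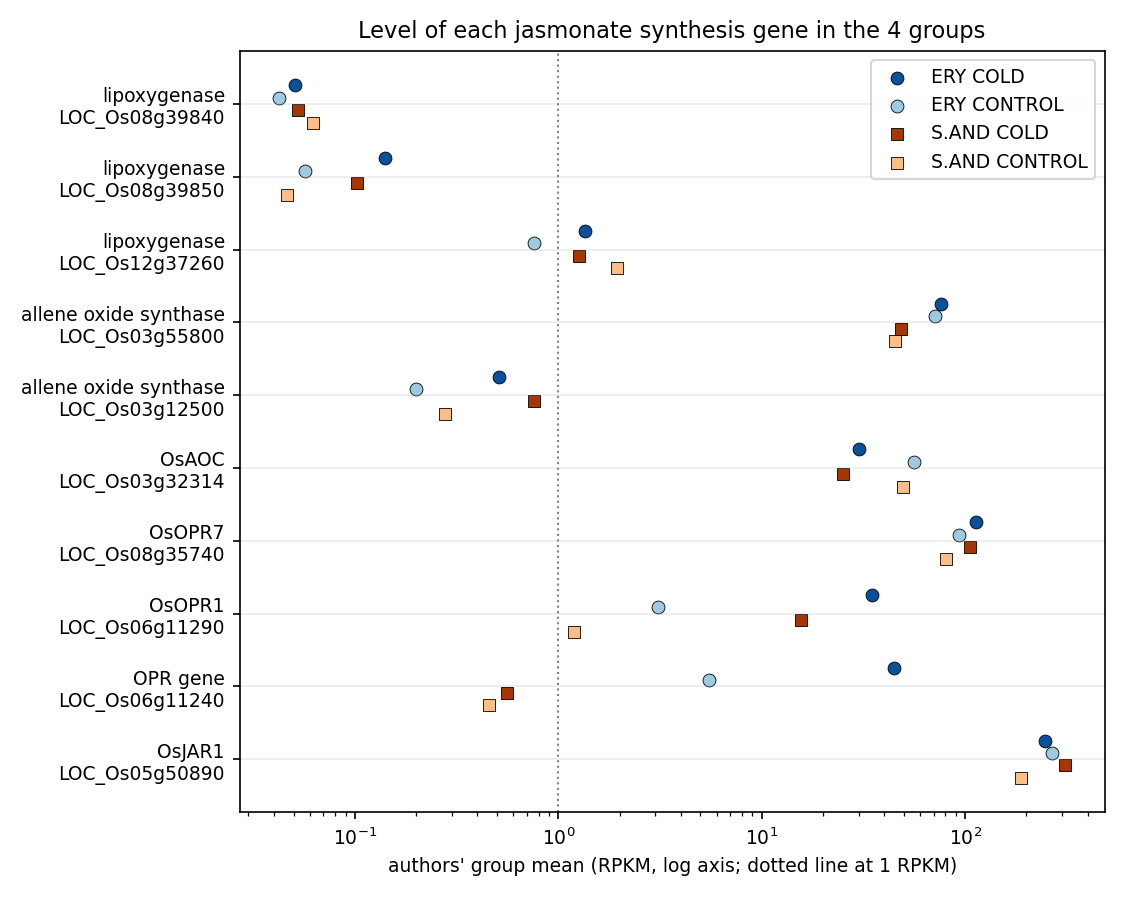
Authors' mean RPKM of each of the 10 genes (log axis), ordered by pathway step from top to bottom, in ERY COLD, ERY CONTROL, S.AND COLD and S.AND CONTROL. Each point is 1 group mean with no error bar, since values per sample were not analysed; OsJAR1 lies highest, and 3 genes lie left of the dotted line at 1 RPKM in all groups.

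The 3 listed lipoxygenase genes, for the first oxygenation step, had low levels. LOC_Os12g37260, a lipoxygenase gene, had 1.35 RPKM in ERY COLD and 0.759 in ERY CONTROL, and 1.27 RPKM in S.AND COLD and 1.94 in S.AND CONTROL. COLD over CONTROL, its log2 ratio was 0.83 for ERY but -0.61 for S.AND. With RPKM + 1 these were 0.42 for ERY and -0.37 for S.AND, and the means lie near 1 RPKM, so the opposite directions are not read. In CONTROL the mean of LOC_Os12g37260 was lower in ERY than in S.AND, with a log2 ratio of -1.35, or -0.74 with RPKM + 1. In COLD the cultivars were close, at a log2 ratio of 0.09. LOC_Os08g39840 was listed at 0.0506 RPKM in ERY COLD and 0.0423 in ERY CONTROL, and at 0.0524 in S.AND COLD and 0.0622 in S.AND CONTROL. LOC_Os08g39850 was listed at 0.140 RPKM in ERY COLD and 0.0570 in ERY CONTROL, and at 0.103 in S.AND COLD and 0.0463 in S.AND CONTROL. No difference is read from values this low. Together the 3 listed lipoxygenase genes summed to 1.54 RPKM in ERY COLD and 0.859 in ERY CONTROL, and to 1.42 RPKM in S.AND COLD and 2.05 in S.AND CONTROL.

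Lipoxygenase transcripts in these anthers came almost wholly from other loci of the family. A further 11 loci listed as lipoxygenases, a family that also holds enzymes outside jasmonate synthesis, summed to 111 RPKM in ERY COLD and 108 in ERY CONTROL, and to 156 RPKM in S.AND COLD and 147 in S.AND CONTROL. LOC_Os03g49380 had 42.4 RPKM in ERY COLD and 31.99 in ERY CONTROL, and 33.7 RPKM in S.AND COLD and 32.5 in S.AND CONTROL. LOC_Os03g49350 was at least 2-fold higher in COLD in both cultivars, with 10.7 RPKM in ERY COLD and 4.75 in ERY CONTROL, and 38.3 RPKM in S.AND COLD and 18.3 in S.AND CONTROL. LOC_Os03g52860 was set apart by cultivar, with 3.00 RPKM in ERY COLD and 1.41 in ERY CONTROL, and 33.5 RPKM in S.AND COLD and 25.6 in S.AND CONTROL. These loci were both lower in ERY, with log2 ratios of ERY to S.AND of -1.95 for LOC_Os03g49350 and -4.18 for LOC_Os03g52860 in CONTROL. LOC_Os04g37430 had 24.7 RPKM in ERY COLD and 33.1 in ERY CONTROL, and LOC_Os05g23880 had 23.5 and 28.2 RPKM in those groups. In S.AND, LOC_Os04g37430 had 19.7 RPKM in COLD and 29.5 in CONTROL, and LOC_Os05g23880 had 22.0 and 29.1 RPKM. Of the 11 loci, 7 reached 1 RPKM. In ERY 2 of these 7 were at least 2-fold higher in COLD and 0 lower, and in S.AND 1 was higher and 0 lower. Over all gene models with at least 1 RPKM, 8.19% were at least 2-fold higher and 6.66% lower in ERY COLD, and 5.42% higher and 9.22% lower in S.AND COLD. The substrate position of each of these enzymes was not examined here, so their sum is not a measure of 13-lipoxygenase transcripts.

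Allene oxide synthase is a cytochrome P450 that commits the hydroperoxide to jasmonate, and 1 of its 2 listed genes gave nearly all of their summed level. No further loci were added for this step. LOC_Os03g55800 had 76.1 RPKM in ERY COLD and 71.2 in ERY CONTROL, and 48.5 RPKM in S.AND COLD and 45.4 in S.AND CONTROL. Its cold log2 ratio was 0.10 for ERY, with 0.09 for S.AND, whereas the log2 ratio of ERY to S.AND was 0.65 at each temperature. The other allene oxide synthase gene, LOC_Os03g12500, stayed under 1 RPKM, with 0.510 RPKM in ERY COLD and 0.1996 in ERY CONTROL, and 0.759 RPKM in S.AND COLD and 0.277 in S.AND CONTROL. LOC_Os03g55800 made up between 98.5% and 99.7% of the summed level of both genes in the 4 groups. The competing hydroperoxide lyase branch makes volatile aldehydes from the same hydroperoxides. Of 3 loci listed for it, LOC_Os02g02000 was the most abundant, with 22.3 RPKM in ERY COLD and 31.2 in ERY CONTROL, and 11.8 RPKM in S.AND COLD and 16.4 in S.AND CONTROL. LOC_Os02g12680 had 1.99 RPKM in ERY COLD and 0.559 in ERY CONTROL, and 5.74 RPKM in S.AND COLD and 9.95 in S.AND CONTROL, so that its mean was higher in COLD for ERY and lower in COLD for S.AND.

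OsAOC was the abundant gene with lower means after the cold night in both cultivars. This cyclase gives the ring of OPDA its natural stereochemistry, and rice plants without it (the hebiba mutant) are deficient in jasmonate. It had 30.0 RPKM in ERY COLD against 56.1 in ERY CONTROL, and 25.0 RPKM in S.AND COLD against 49.4 in S.AND CONTROL. Its log2 ratio was -0.90 for ERY, with -0.98 for S.AND, just under a 2-fold difference in each. Among genes with at least 10 RPKM in a group, 784 of 15246 in ERY and 872 of 15231 in S.AND had a lower cold log2 ratio. Genes without a nonzero mean in both groups compared are left out of these counts. The cultivars were close to each other, with a log2 ratio of ERY to S.AND of 0.26 in COLD and 0.18 in CONTROL.

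The balance of transcripts around OsAOC was therefore different in COLD. The level of LOC_Os03g55800 was 2.54 times that of OsAOC in ERY COLD and 1.27 times in ERY CONTROL, and 1.93 times in S.AND COLD and 0.919 times in S.AND CONTROL. The level of OsOPR7 was 3.78 times that of OsAOC in ERY COLD and 1.67 times in ERY CONTROL, and 4.20 times in S.AND COLD and 1.63 times in S.AND CONTROL. Such ratios within a column do not depend on how the columns were scaled.

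The listed genes of the reductase family included the members with the largest cold ratios. OsOPR7 is the rice reductase able to replace the OPDA reductase OPR3 in Arabidopsis, and it had 113 RPKM in ERY COLD and 93.4 in ERY CONTROL, and 105 RPKM in S.AND COLD and 80.5 in S.AND CONTROL. Its cold log2 ratio was 0.28 for ERY, with 0.39 for S.AND, and it was the most abundant reductase gene of the 3 in all 4 groups. OsOPR1 belongs to the other branch of the family, whose Arabidopsis members are not the main enzymes of jasmonate synthesis. It had 34.9 RPKM in ERY COLD against 3.08 in ERY CONTROL, and 15.6 RPKM in S.AND COLD against 1.20 in S.AND CONTROL. The means differed 11.3-fold in ERY, and 13.1-fold in S.AND. The order of the cultivars is not read, since with RPKM + 1 the cold log2 ratio was 3.14 for ERY but 2.92 for S.AND. Among genes with at least 10 RPKM in a group, 31 of 15246 in ERY and 15 of 15231 in S.AND had a higher cold log2 ratio than OsOPR1. These counts leave out genes without a nonzero mean in both groups compared. OsOPR1 reached 10 RPKM in the COLD groups alone, so its ranks are a description and no support.

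LOC_Os06g11240 was the member with the largest ratio between the cultivars, at both temperatures. It had 44.6 RPKM in ERY COLD against 5.50 in ERY CONTROL, a ratio of 8.12, and 0.562 RPKM in S.AND COLD against 0.458 in S.AND CONTROL. Both S.AND means lay under 1 RPKM, so no ratio is read there. Between the cultivars the mean in ERY was 79.4 times that in S.AND in COLD (log2 6.31), and the log2 ratio in CONTROL was 3.59. Both ratios have an S.AND mean under 1 RPKM below them, and with RPKM + 1 the log2 ratio was 4.87 in COLD and 2.16 in CONTROL. The log2 ratio of ERY to S.AND was exceeded by 77 of 15232 genes in COLD and by 152 of 15233 in CONTROL. These counts cover genes with at least 10 RPKM in a group and a nonzero mean in both groups compared, so genes seen in ERY alone are missing. LOC_Os06g11240 reached 10 RPKM in ERY COLD alone. Its place in this set thus rests on the group where it is high, and its ranks are a description and no support. The level of LOC_Os06g11240 was 1.28 times that of OsOPR1 in ERY COLD and 1.78 times in ERY CONTROL, and 0.0360 times in S.AND COLD and 0.383 times in S.AND CONTROL.

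Markers of other floral organs and of green tissue were also uneven between the groups. The 3 pistil or ovule genes DL (LOC_Os03g11600), OsMADS13 (LOC_Os12g10540) and OsMADS21 (LOC_Os01g66290) summed to 23.3 RPKM in ERY COLD and 14.9 in ERY CONTROL, and to 4.30 RPKM in S.AND COLD and 9.43 in S.AND CONTROL. None of the 3 was at 0 in any group, and all 3 were at least 2-fold higher in ERY COLD than in S.AND COLD, beside 6.91% of all gene models. The part of these tissues in the values of LOC_Os06g11240 was not tested. The 5 green tissue genes summed to 252 RPKM in ERY COLD and 127 in ERY CONTROL, and to 157 RPKM in S.AND COLD and 121 in S.AND CONTROL. LOC_Os01g41710 alone had 157 RPKM in ERY COLD and 56.0 in ERY CONTROL, and 76.8 RPKM in S.AND COLD and 31.6 in S.AND CONTROL. It was at least 2-fold higher in COLD in both cultivars. None of the other 3 green tissue genes with at least 1 RPKM was 2-fold apart between COLD and CONTROL. The 4 lemma or palea genes summed to 95.6 RPKM in ERY COLD and 79.9 in ERY CONTROL, and to 106 RPKM in S.AND COLD and 85.5 in S.AND CONTROL. LOC_Os03g54160 made up most of that sum in every group. In COLD, 2 of these 4 (LOC_Os03g11614 and LOC_Os02g45770) were at least 2-fold higher in ERY than in S.AND and 0 lower. Of the 4 green tissue genes with at least 1 RPKM, 2 (LOC_Os12g19470 and LOC_Os01g41710) were likewise higher and 0 lower. The shares of all gene models were 6.91% higher and 6.85% lower. The part of these tissues was not tested either. The 5 tapetum genes, from the cell layer that feeds the microspores, summed to 21367 RPKM in ERY COLD and 27284 in ERY CONTROL, and to 22961 RPKM in S.AND COLD and 30098 in S.AND CONTROL. LOC_Os11g37280 made up most of that sum, at 19829 RPKM or more in every group. Of the 5, LOC_Os08g03682 and LOC_Os03g07250 were at least 2-fold lower in ERY than in S.AND at both temperatures, with log2 ratios in CONTROL of -3.45 and -2.40. Over all gene models, 11.2% were at least 2-fold lower in ERY in CONTROL and 6.85% in COLD. Their part in the differences between the cultivars was not tested.

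**Figure D2:**
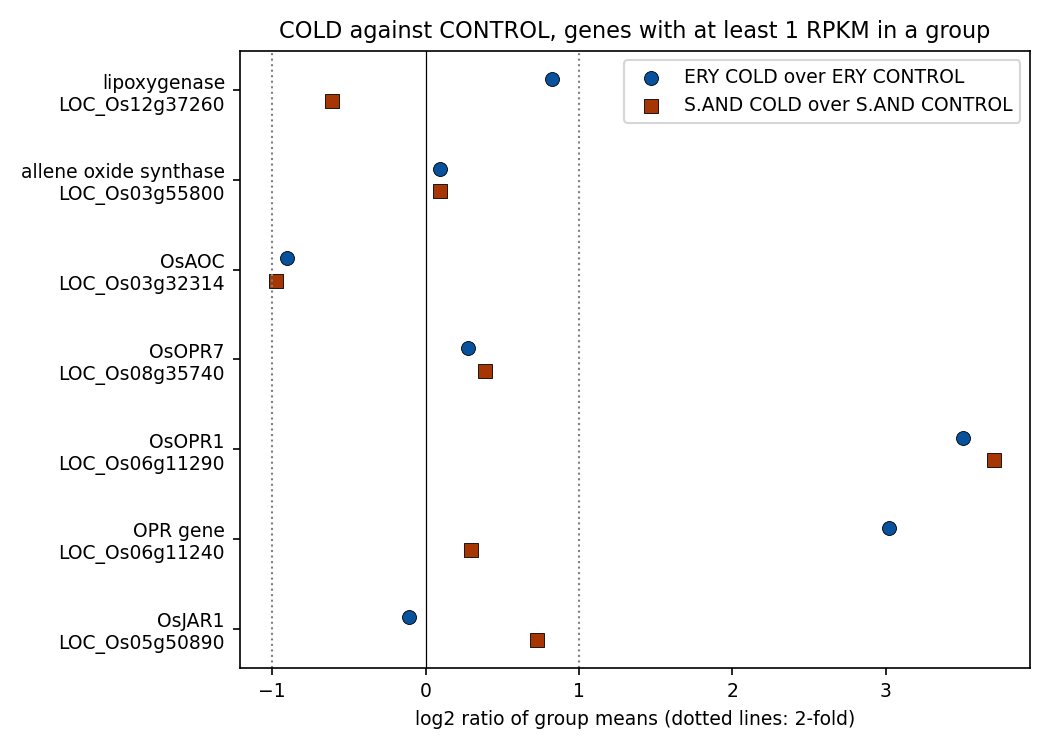
Log2 ratio of group means, COLD over CONTROL, in ERY and in S.AND for the 7 genes with at least 1 RPKM in a group, with dotted lines at a 2-fold difference and no error bars. OsOPR1 lies beyond 3 in both cultivars, LOC_Os06g11240 does so in ERY alone (its S.AND means are both under 1 RPKM), and OsAOC lies near the lower line in both.

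LOC_Os06g11240 and OsOPR1 lie in a block of 6 OPR loci on chromosome 6 that are neighbours in the order of locus identifiers. The 6 loci summed to 83.9 RPKM in ERY COLD and 9.78 in ERY CONTROL, and to 27.4 RPKM in S.AND COLD and 7.58 in S.AND CONTROL. LOC_Os06g11240 gave 53.2% of the sum in ERY COLD and 56.2% in ERY CONTROL, and 2.05% in S.AND COLD and 6.04% in S.AND CONTROL. LOC_Os06g11210 was higher in COLD in both cultivars, with 2.57 RPKM in ERY COLD and 0.273 in ERY CONTROL, and 7.81 RPKM in S.AND COLD and 2.33 in S.AND CONTROL. Its cold log2 ratio was 3.24 for ERY, with 1.75 for S.AND. LOC_Os06g11260 had 0.410 RPKM in ERY COLD and 0.0152 in ERY CONTROL, and 1.39 RPKM in S.AND COLD and 0.422 in S.AND CONTROL. LOC_Os06g11280, the neighbour of OsOPR1, had 0.340 RPKM in ERY COLD and 0.399 in ERY CONTROL, and 1.15 RPKM in S.AND COLD and 2.16 in S.AND CONTROL. LOC_Os06g11200 had 0.979 RPKM in ERY COLD and 0.519 in ERY CONTROL, and 0.900 RPKM in S.AND COLD and 1.02 in S.AND CONTROL. LOC_Os06g11240 and OsOPR1 were thus higher in ERY than in S.AND, at both temperatures, whereas LOC_Os06g11210 and LOC_Os06g11280 were lower in ERY at both. LOC_Os06g11260 was lower in ERY than in S.AND in COLD, and both of its CONTROL means were under 1 RPKM.

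The gene models between these reductase loci also differed by cultivar. LOC_Os06g11230, next to LOC_Os06g11240, had 0.191 RPKM in ERY COLD and 0.0519 in ERY CONTROL, and 11.4 RPKM in S.AND COLD and 16.6 in S.AND CONTROL. LOC_Os06g11220 had 0.0231 RPKM in ERY COLD and 0.0447 in ERY CONTROL, and 1.38 RPKM in S.AND COLD and 1.41 in S.AND CONTROL. Outside the block the cultivars were closer, as in LOC_Os06g11190, with 4.90 RPKM in ERY COLD and 5.51 in ERY CONTROL, and 7.21 RPKM in S.AND COLD and 7.68 in S.AND CONTROL. On the other side, LOC_Os06g11300 and LOC_Os06g11308 stayed under 1 RPKM, as did LOC_Os06g11270 within the block. LOC_Os06g11304 had 1.43 RPKM in ERY COLD and 0.854 in ERY CONTROL, and 0.768 RPKM in S.AND COLD and 0.911 in S.AND CONTROL. LOC_Os06g11310 was lower in COLD, with 1.37 RPKM in ERY COLD and 2.56 in ERY CONTROL, and 0.951 RPKM in S.AND COLD and 2.97 in S.AND CONTROL. LOC_Os06g11320 had 62.7 RPKM in ERY COLD and 72.3 in ERY CONTROL, and 49.8 RPKM in S.AND COLD and 51.7 in S.AND CONTROL. Reads were 50 bp long and were mapped to 1 set of gene models for both cultivars. The counting of reads that match several OPR copies was not given in the sources used here, so the split of reads among these loci is uncertain. Its part in the difference between the cultivars was not tested.

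**Figure D3:**
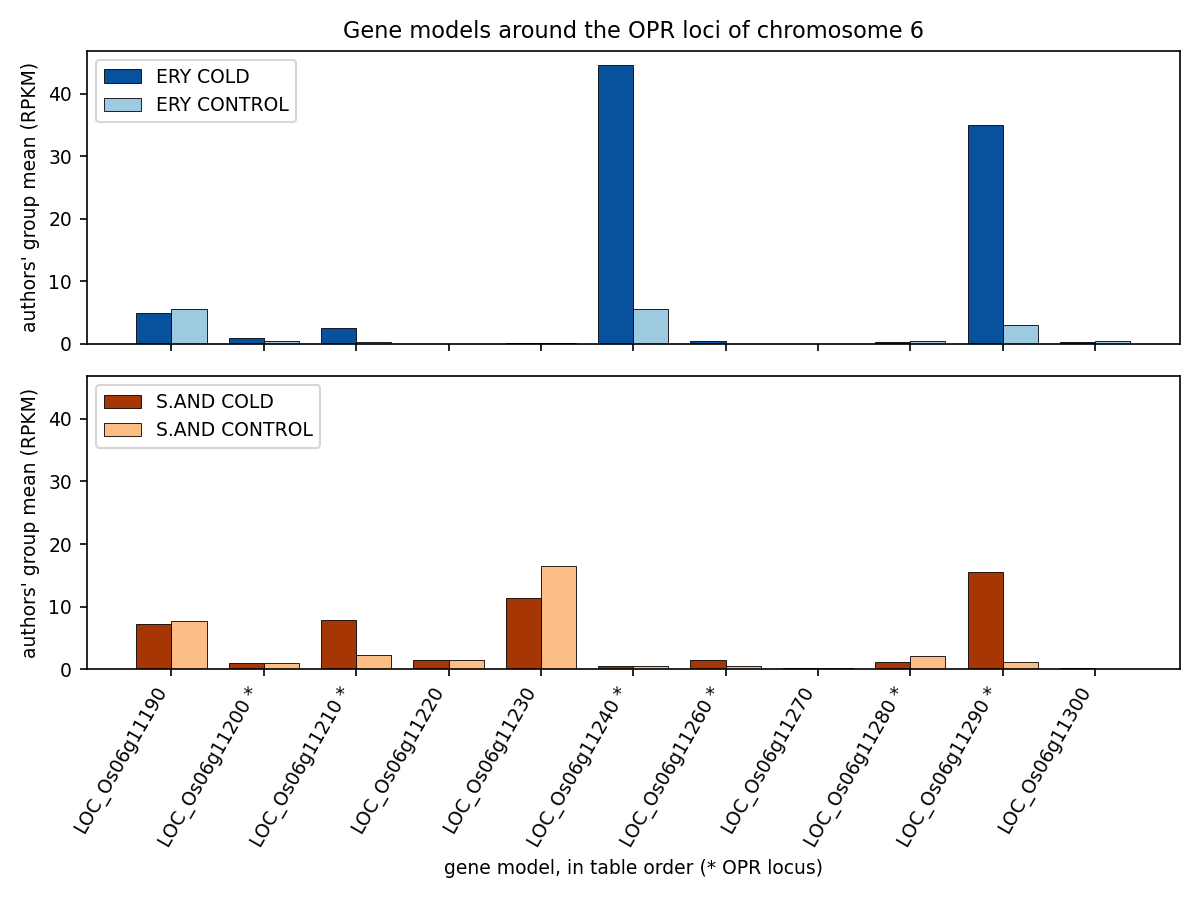
Authors' mean RPKM of 11 gene models in table order around the OPR loci of chromosome 6 (asterisks), with ERY COLD and ERY CONTROL in the upper panel and S.AND COLD and S.AND CONTROL in the lower panel, on the same axis starting at 0. LOC_Os06g11240 stands out in ERY COLD at 44.6 RPKM and is nearly flat in S.AND, whereas its neighbour LOC_Os06g11230 stands at 11.4 and 16.6 RPKM in S.AND and at 0.191 RPKM or less in ERY.

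Summed over the 3 listed reductase genes, the level was 193 RPKM in ERY COLD and 102 in ERY CONTROL, and 121 RPKM in S.AND COLD and 82.1 in S.AND CONTROL. OsOPR7 gave 58.8% of that sum in ERY COLD and 91.6% in ERY CONTROL, and 86.7% in S.AND COLD and 98.0% in S.AND CONTROL. OsOPR1 belongs to the other branch of the family, and the branch of LOC_Os06g11240 was not examined here. The sum is therefore not a measure of the OPDA reductase transcripts of jasmonate synthesis. Of the OPR loci outside the block other than OsOPR7, LOC_Os02g35310 had 5.98 RPKM in ERY COLD and 12.01 in ERY CONTROL, and 8.08 RPKM in S.AND COLD and 10.8 in S.AND CONTROL, and its mean in ERY was 2.006-fold lower in COLD. LOC_Os01g27230 and LOC_Os01g27240 stayed under 1 RPKM in every group.

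OsJAR1, the enzyme that conjugates jasmonic acid to isoleucine, was high in all groups, and its cold ratio differed between the cultivars. It had 248 RPKM in ERY COLD and 268 in ERY CONTROL, and 311 RPKM in S.AND COLD and 188 in S.AND CONTROL. Its cold log2 ratio was -0.11 for ERY but 0.73 for S.AND, giving a difference (ERY minus S.AND) of -0.84. Of 15218 genes with at least 10 RPKM in a group and a nonzero mean in every group, 260 lay below that difference. The log2 ratio of ERY to S.AND was -0.33 in COLD and 0.51 in CONTROL, so that the order of the cultivars turned round. None of these differences reached 2-fold. By level, OsJAR1 was gene model number 535 of 55985 in ERY COLD and 480 in ERY CONTROL, and 364 in S.AND COLD and 730 in S.AND CONTROL.

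In ERY, then, 2 members (OsOPR1 and LOC_Os06g11240) of the 7 with at least 1 RPKM were at least 2-fold higher in COLD and 0 were lower. Among all 23936 gene models that reached 1 RPKM in that comparison, 8.19% were at least 2-fold higher and 6.66% lower. In S.AND 1 member (OsOPR1) of 6 was higher and 0 were lower, beside 5.42% higher and 9.22% lower of 24203 gene models. The median cold log2 ratio was 0.28 over the 7 members in ERY and 0.24 over the 6 in S.AND, against 0.03 and 0.00 over all gene models. Between the cultivars in COLD, 2 members of 7 (OsOPR1 and LOC_Os06g11240) were at least 2-fold higher in ERY and 0 lower, beside 6.91% higher and 6.85% lower of all gene models. In CONTROL the same 2 members were higher in ERY and 1 (LOC_Os12g37260) was lower, beside 7.9% higher and 11.2% lower. With RPKM + 1 the log2 ratio in CONTROL was 0.89 for OsOPR1 and -0.74 for LOC_Os12g37260, so that LOC_Os06g11240 alone was 2-fold apart. OsOPR1 had a ratio of ERY to S.AND of 2.24 in COLD and 2.58 in CONTROL. OsOPR1 and LOC_Os06g11240 are both OPR loci of the chromosome 6 block, and other OPR loci went the other way. Of 7 OPR loci outside the list, 4 reached 1 RPKM in COLD, with 0 at least 2-fold higher in ERY and 3 lower. In CONTROL 4 also reached 1 RPKM, with 0 higher in ERY and 2 lower. With so few members, the counts of members describe single genes and nothing about the list. The members were also chosen with earlier results of these data known, so the counts are no support.

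The steps after the listed enzymes were looked at through loci fixed by identifier, likewise with earlier results of these data known. The 4 peroxisomal beta-oxidation loci were abundant and none was 2-fold apart in any comparison. LOC_Os02g57260 had 259 RPKM in ERY COLD and 143 in ERY CONTROL, and 331 RPKM in S.AND COLD and 251 in S.AND CONTROL. LOC_Os02g17390 had 138 RPKM in ERY COLD and 165 in ERY CONTROL, and 150 RPKM in S.AND COLD and 168 in S.AND CONTROL. LOC_Os10g31950 ranged from 153 to 164 RPKM over the 4 groups and LOC_Os05g29880 from 30.7 to 35.6 RPKM. The plastid lipase locus LOC_Os01g67430, for a step that frees fatty acid, had 2.31 RPKM in ERY COLD and 3.59 in ERY CONTROL, and 1.003 RPKM in S.AND COLD and 0.737 in S.AND CONTROL.

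Loci of conjugation and turnover were split in direction, and each of the 4 had the same direction in both cultivars. LOC_Os01g12160, listed with OsJAR1 as a conjugating enzyme, had 77.4 RPKM in ERY COLD against 29.6 in ERY CONTROL, and 65.2 RPKM in S.AND COLD against 24.2 in S.AND CONTROL. Its cold log2 ratio was 1.39 for ERY, with 1.43 for S.AND. The cytochrome P450 gene LOC_Os11g05380 had 96.0 RPKM in ERY COLD against 24.4 in ERY CONTROL, and 24.2 RPKM in S.AND COLD against 12.9 in S.AND CONTROL. Another cytochrome P450 gene, LOC_Os12g05440, was lower in COLD, with 23.0 RPKM in ERY COLD against 50.3 in ERY CONTROL, and 11.9 RPKM in S.AND COLD against 24.3 in S.AND CONTROL. LOC_Os04g56950, listed as a jasmonate O-methyltransferase locus, had 4.73 RPKM in ERY COLD against 11.6 in ERY CONTROL, and 4.74 RPKM in S.AND COLD against 17.3 in S.AND CONTROL. Of these 4 loci, 2 were at least 2-fold higher and 2 lower in ERY, and 1 was higher and 2 lower in S.AND, beside the shares of all gene models of 8.19% higher and 6.66% lower in ERY, and 5.42% higher and 9.22% lower in S.AND.

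Of the 3 receptor loci, 2 had higher means in COLD in both cultivars. Among all gene models with at least 1 RPKM, 12630 of 23936 in ERY and 12122 of 24203 in S.AND had higher means in COLD. Among the loci of COI receptors, the F-box proteins that bind conjugated jasmonate, LOC_Os05g37690 had 64.2 RPKM in ERY COLD against 24.8 in ERY CONTROL, and 60.3 RPKM in S.AND COLD against 27.2 in S.AND CONTROL. LOC_Os03g15880 had 74.0 RPKM in ERY COLD against 43.6 in ERY CONTROL, and 79.1 RPKM in S.AND COLD against 32.0 in S.AND CONTROL. The third receptor locus, LOC_Os01g63420, had 62.5 RPKM in ERY COLD and 62.0 in ERY CONTROL, and 68.9 RPKM in S.AND COLD and 79.8 in S.AND CONTROL. The MYC2 locus LOC_Os10g42430, for a transcription factor held back by JAZ proteins, had 32.6 RPKM in ERY COLD and 26.4 in ERY CONTROL, and 39.4 RPKM in S.AND COLD and 41.6 in S.AND CONTROL. Of these 4 loci, 1 was at least 2-fold higher in COLD in ERY and 2 in S.AND, and 0 were lower in either. The shares of all gene models were 8.19% higher and 6.66% lower in ERY, and 5.42% higher and 9.22% lower in S.AND. With so few loci, these counts describe single genes.

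Of 15 JAZ loci, whose genes are often induced by jasmonate itself, 11 reached 1 RPKM in both cold comparisons. A single locus, LOC_Os10g25290, was at least 2-fold higher in COLD, with 25.1 RPKM in ERY COLD against 10.9 in ERY CONTROL, and 29.5 RPKM in S.AND COLD against 13.8 in S.AND CONTROL. None of the 11 was 2-fold lower. That 1 of 11 is near the share of higher gene models in the whole table (8.19% for ERY, 5.42% for S.AND) and is no result about the JAZ loci. LOC_Os03g08310 had 202 RPKM in ERY COLD and 133 in ERY CONTROL, and 190 RPKM in S.AND COLD and 113 in S.AND CONTROL. LOC_Os04g55920 was the most abundant JAZ locus, with 598 RPKM in ERY COLD and 633 in ERY CONTROL, and 603 RPKM in S.AND COLD and 595 in S.AND CONTROL. LOC_Os09g26780 had 36.3 RPKM in ERY COLD and 63.2 in ERY CONTROL, and 40.5 RPKM in S.AND COLD and 62.1 in S.AND CONTROL. The median cold log2 ratio of the 11 loci was 0.29 for ERY, with 0.48 for S.AND, against 0.03 and 0.00 over all gene models. In ERY the 11 were divided, with 6 higher in COLD and 5 lower, and in S.AND 9 were higher and 2 lower.

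**Figure D4:**
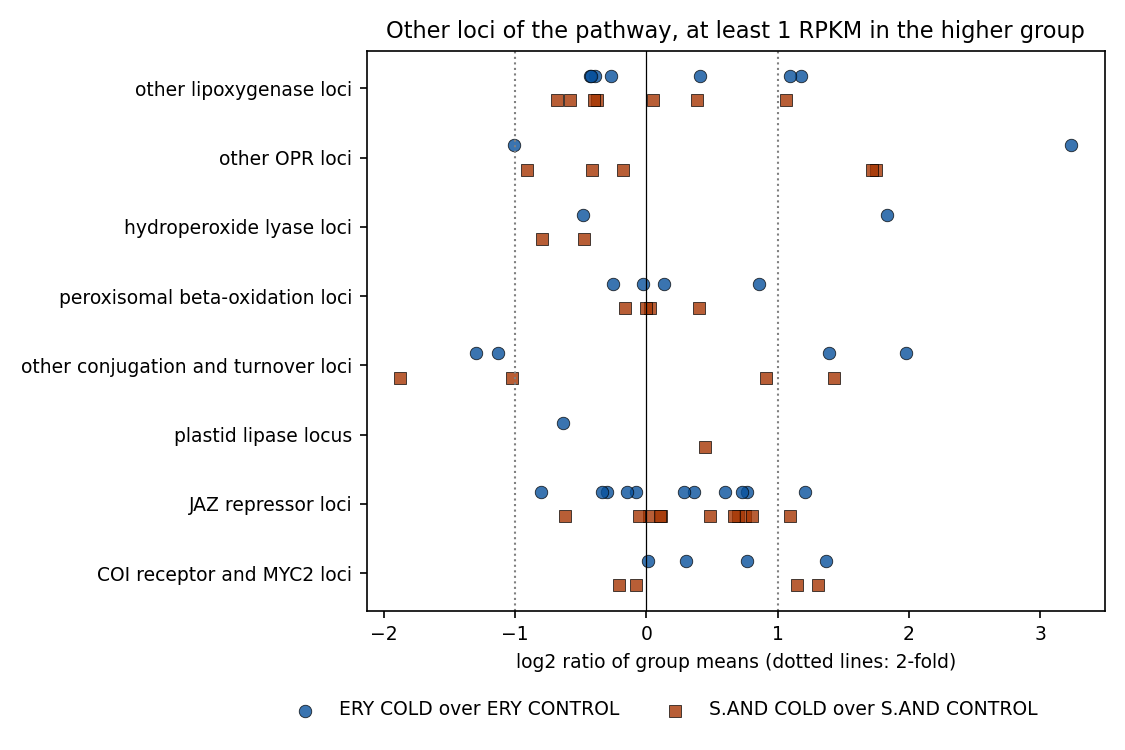
Log2 ratio of group means, COLD over CONTROL, for other loci of the pathway in ERY and in S.AND, limited to loci with at least 1 RPKM in the higher group of that comparison; dotted lines mark a 2-fold difference and there are no error bars. The 4 beta-oxidation loci lie between the dotted lines, and the 4 loci of conjugation and turnover lie on both sides.

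Genes whose 4 group means were most like those of LOC_Os06g11240 were sought among 15259 genes with at least 10 RPKM in a group, by the Euclidean distance of centred log2(RPKM + 1) values over the 4 means. The nearest was LOC_Os11g06980, at a distance of 0.47, with 40.8 RPKM in ERY COLD and 5.61 in ERY CONTROL, and 0.0705 RPKM in S.AND COLD and 0.0609 in S.AND CONTROL. LOC_Os01g05260 followed at 0.82, with 52.5 RPKM in ERY COLD and 6.97 in ERY CONTROL and 0.0471 RPKM or less in S.AND. LOC_Os11g37250 followed at 1.20, with 30.7 RPKM in ERY COLD and 10.8 in ERY CONTROL and 0.165 RPKM or less in S.AND. For the lipoxygenase gene LOC_Os12g37260, whose pattern is shallow on this scale, the nearest were LOC_Os01g72490, LOC_Os02g35770 and LOC_Os05g29974, at distances of 0.06 to 0.07. A likeness over 4 group means is a weak description.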

How the data were processed

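Per the labels and the study's methods, poly(A) RNA of 12 anther samples was sequenced (single reads of 50 bp), and the authors mapped the reads to the MSU 7.0 gene models in CLC Genomics Workbench 4.7.1. The deposited table gives RPKM that the authors normalized by totals and averaged over the 3 samples of each group. Its 4 other value columns hold the authors' fold change and FDR (Baggerley's test) of each cultivar, and these were not used. The study states a minimum number of reads per sample. Exact totals were not analysed here, and the settings of the mapping are not given in the sources used here.

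Log2 ratios of group means were computed with no pseudocount. Alternatives were folds of 1.5 and 3, RPKM + 1, no minimum, a minimum of 10 RPKM, and centring on the median gene. The text names all 10 members, other listed loci with at least 10 RPKM in a group or 2-fold apart between COLD and CONTROL, gene models within 5 table rows of LOC_Os06g11240 and LOC_Os06g11290, and the 3 nearest patterns of the 2 members with the largest difference in cold log2 ratio; for the JAZ loci only examples are given, and LOC_Os01g27230, LOC_Os01g27240, the plastid lipase locus and marker genes were named outside this rule. The members and lists were chosen with earlier results of these data known. The deposited table holds no gene descriptions. Families of added loci come from general knowledge of rice genes and, for some loci, from the study's gene descriptions. Of the table's identifiers, 0 matched the RefSeq gene table, so no coordinates or sequences are printed. The code was tested on simulated data. Python 3.11.15, NumPy 2.4.6, pandas 2.3.3 and matplotlib 3.10.9 were used.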

Additional observations from a re-analysis of the deposited data

How the results depend on the processing

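Centring on the median gene changed no count of members 2-fold apart, and left all 40 log2 ratios of the members within 1.5-fold of their values; RPKM + 1 moved 8 of the 40 by more than that, all toward 0. With a fold of 1.5, 4 members were apart between COLD and CONTROL in ERY (2 at a fold of 2) and 4 in S.AND (1 at a fold of 2), OsAOC among them in both. With no minimum RPKM the counts were 4 in ERY and 3 in S.AND, the added genes being under 1 RPKM. Between the cultivars in CONTROL, 3 members were apart at a fold of 2, against 1 at a fold of 3, 1 with RPKM + 1 (OsOPR1 and LOC_Os12g37260 no longer apart) and 0 with a minimum of 10 RPKM. In COLD the 2 members became 1 at a fold of 3. No direction of a member 2-fold apart turned round under RPKM + 1 or centring. With added loci of the families included, the lipoxygenase sum was 112 RPKM in ERY COLD and 109 in ERY CONTROL, and 157 in S.AND COLD and 150 in S.AND CONTROL. No paired analysis was possible because the columns are group means that carry no replicate numbers. Leaving out a replicate was likewise not run. The reads behind values under 1 RPKM, and so their precision, were not analysed here.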

Other observations

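The contrast between LOC_Os06g11230 and LOC_Os06g11240, neighbours that are each seen mainly in a single cultivar, was looked for elsewhere in the table after it had been noticed. In CONTROL, 503 gene models had an ERY mean at least 10 times the S.AND mean, with at least 1 RPKM in ERY, and the converse held for 793. Among 55971 adjacent pairs of gene models, 19 pairs held 1 model of each kind, the pair that prompted the search among them. The number of such pairs to be met with models placed at random was not worked out. The 19 pairs are therefore not read as many or few. LOC_Os11g06980, the gene nearest to LOC_Os06g11240 in its 4 means, was in such a pair as well: its neighbour LOC_Os11g06990 had 0.00974 RPKM in ERY against 1.69 in S.AND, both in CONTROL. Another pair was LOC_Os08g10760, with 0.431 RPKM in ERY against 290.4 in S.AND, and LOC_Os08g10770, with 12.03 RPKM in ERY against 0.0331 in S.AND, again in CONTROL. What makes such pairs was not tested, and the pair of LOC_Os08g10760 was picked for its large values.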
